A study of Mus musculus with 18 samples.

Results

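GFP+ osteoblasts derived from mouse embryonic stem cells (ESC-OB GFP+) were compared with ESC across all genes of the count table that holds both populations. The members were the 3 ESC-OB GFP+ and 3 ESC libraries, chosen by their labels, which are 6 of the 18 libraries of the series. The remaining libraries came from fresh bone and bone chip cultures. The comparison asks which genes differ between cells that have passed through osteogenic differentiation to an active *Col1a1* promoter and the cells they came from.

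ESC-OB GFP+ libraries were made from GFP+ (hi) cells sorted after osteogenic differentiation of Col2.3GFP ESC. The transgene places GFP under a fragment of the *Col1a1* promoter that is active in maturing osteoblasts, so the gate selects on this promoter and not on a bone protein. The reference libraries were titled ESC cells. Their treatment label also reads osteogenic differentiation, but titles, source names and the study's methods name ESC, so the cells were read as undifferentiated. Both populations carry the same transgene as far as the methods state. The study refers to ESC lines in the plural, and which line or culture gave which library and the days of differentiation are not given in the sources used here. With separate cultures unstated, p-values measure only the spread between these libraries. GFP has no row in the table, so the sort could not be checked on the transgene itself.

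Total counts were 5566062, 21215099 and 4920977 in ESC replicates 1, 2 and 3, and 26601417, 20680956 and 23105867 in ESC-OB GFP+ replicates 1, 2 and 3. Levels are given as CPM, counts scaled to a common library size, and 1 CPM was about 4.92 counts in the shallowest library. Of each ESC library, 5.72 to 7.95% of counts fell on *Rn45s* (precursor of ribosomal RNA), and of each ESC-OB GFP+ library 0.290 to 0.690%. Without *Rn45s*, 6613 genes were higher and 5354 lower. ESC replicates 2 and 3 stood close to each other: 10.3% of 13759 genes differed past the point that counting noise passes in 5% of genes, against 40.0 and 41.8% for the other ESC pairs and 61.0 to 69.1% for the ESC-OB GFP+ pairs. These shares rise with depth and were not taken at 1 depth, so ESC and ESC-OB GFP+ pairs are not on a like footing. ESC replicates 2 and 3 were kept as separate samples, as labelled. That they differed by more than counting noise does not show separate cultures, so n = 3 for ESC counts libraries and may not count cultures. With the 2 libraries summed as 1, 6300 genes were higher and 5210 lower.

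ESC are held in a pluripotent state by a network of transcription factors around *Pou5f1*, *Nanog* and *Sox2*, and they divide fast. On the way to bone, mesenchymal progenitors switch on *Runx2*, then *Sp7*, and secrete a matrix of type I collagen. Maturing osteoblasts add the acidic phosphoproteins of the SIBLING family, among them *Ibsp* (bone sialoprotein), *Dmp1* and *Mepe*, which bind mineral, and later *Bglap* (osteocalcin). ESC left to differentiate can also give epithelium, endoderm, muscle and blood, so markers of these were read in the same libraries.

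The SIBLING genes lie in a cluster on mouse chromosome 5. On NCBIM37 (mm9), the build of the files, GENCODE vM1 places *Dmp1* at chr5:104631632-104643121, *Ibsp* at chr5:104728190-104740488, *Mepe* at chr5:104754348-104767630 and *Spp1* (osteopontin) at chr5:104864137-104870069, all on the plus strand. Because these neighbours were all highest in the same ESC-OB GFP+ library (values below), the 250 bases upstream of their RefSeq start sites are shown, with a CCAAT box in capitals (CCAAT, or ATTGG where it is read on the other strand). The upstream window of *Nanog* (chr6:122707239-122707488, plus strand) is shown beside them for a gene nearly lost from every ESC-OB GFP+ library, with TTTGCAT, an octamer-type match, in capitals. The windows are chr5:104197325-104197574 for *Dmp1*, chr5:104299037-104299286 for *Ibsp*, chr5:104325079-104325328 for *Mepe* and chr5:104434861-104435110 for *Spp1*. Sequences and these window positions are RefSeq's, on GRCm38.p6, and are not on the build of the files.
Dmp1: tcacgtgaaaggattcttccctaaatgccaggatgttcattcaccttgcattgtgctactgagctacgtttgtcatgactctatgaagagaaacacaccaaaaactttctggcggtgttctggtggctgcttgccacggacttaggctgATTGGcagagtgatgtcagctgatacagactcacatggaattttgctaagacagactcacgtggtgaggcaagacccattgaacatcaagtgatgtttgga
Ibsp: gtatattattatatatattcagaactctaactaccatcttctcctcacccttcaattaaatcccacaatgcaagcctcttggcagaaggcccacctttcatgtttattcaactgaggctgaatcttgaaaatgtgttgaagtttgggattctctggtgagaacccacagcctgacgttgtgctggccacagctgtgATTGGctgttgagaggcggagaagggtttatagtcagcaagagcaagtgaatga
Mepe: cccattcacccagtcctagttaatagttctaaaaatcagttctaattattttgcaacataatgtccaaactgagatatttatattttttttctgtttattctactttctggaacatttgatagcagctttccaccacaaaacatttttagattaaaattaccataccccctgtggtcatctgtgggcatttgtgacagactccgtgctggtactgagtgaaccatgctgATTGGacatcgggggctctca
Spp1: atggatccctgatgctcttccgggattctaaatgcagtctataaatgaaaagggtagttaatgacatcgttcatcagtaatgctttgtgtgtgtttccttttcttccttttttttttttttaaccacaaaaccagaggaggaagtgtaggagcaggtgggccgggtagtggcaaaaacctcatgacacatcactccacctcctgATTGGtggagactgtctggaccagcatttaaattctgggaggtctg
Nanog: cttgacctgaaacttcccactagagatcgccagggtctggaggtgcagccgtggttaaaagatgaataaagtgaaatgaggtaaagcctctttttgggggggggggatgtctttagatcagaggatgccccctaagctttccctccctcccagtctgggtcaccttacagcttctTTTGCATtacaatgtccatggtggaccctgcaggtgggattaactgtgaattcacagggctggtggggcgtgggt
Each of the 4 SIBLING windows held 1 CCAAT match, all read as ATTGG, beginning 101 bases before the start site of *Dmp1*, 54 before that of *Ibsp*, 21 before that of *Mepe* and 46 before that of *Spp1*. Over both strands, 33.8% of 32851 RefSeq windows of the same length held CCAAT. The Runx core TGTGGT (or ACCACA) was found 2 times in the window of *Mepe* and 1 time in that of *Spp1*, and not in those of *Ibsp* and *Dmp1*. Of all windows, 14% held it. The *Nanog* window held TTTGCAT beginning 75 bases before the start site, as 4.12% of windows did on either strand. No match overlapped another of these motifs. The matches are a description of letters and not of binding.

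An ESC marker was nearly gone from the sorted cells, and markers of bone and of epithelium had appeared, the main bone marker very unevenly. *Nanog* was at 955, 1099 and 900.1 CPM in ESC replicates 1 to 3 and at 0.104, 0.0456 and 0.0805 CPM in ESC-OB GFP+ replicates 1 to 3, a log2 fold change of -13.48 ± 0.32 (standard error, n = 3 libraries per group, as for all log2 fold changes here; adjusted p = 5.5e-09, edgeR's quasi-likelihood test). *Runx2*, the transcription factor that commits cells to the osteoblast lineage, was at 0, 0.111 and 0 CPM in ESC and 9.50, 23 and 14.2 CPM in ESC-OB GFP+ libraries, a ratio of 211-fold (95% counting interval 58.3 to 1744). Every ESC-OB GFP+ library was above every ESC library. That was common: it held for 6938 of the 15417 genes that passed the filter on low counts. In 5645 every ESC-OB GFP+ library was below. *Krt14*, a keratin of basal keratinocytes and not of bone, was at 0, 0.111 and 0 CPM in ESC and 634, 565 and 568 CPM in ESC-OB GFP+ libraries, and the groups did not overlap. *Ibsp* had no count in ESC and 17, 30225 and 6038 counts in ESC-OB GFP+ replicates 1, 2 and 3, or 0.587, 1379.5 and 243 CPM, at least 4507-fold higher on average against a floor of 3 counts over the ESC group (adjusted p = 0.0034, edgeR's quasi-likelihood test). Replicate 1 was close to ESC for *Ibsp*, and replicates 2 and 3 were far above it. Without ESC-OB GFP+ replicate 2 the adjusted p was 0.026, and without replicate 1 it was 1.2e-04 (edgeR).

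**Figure D1:**
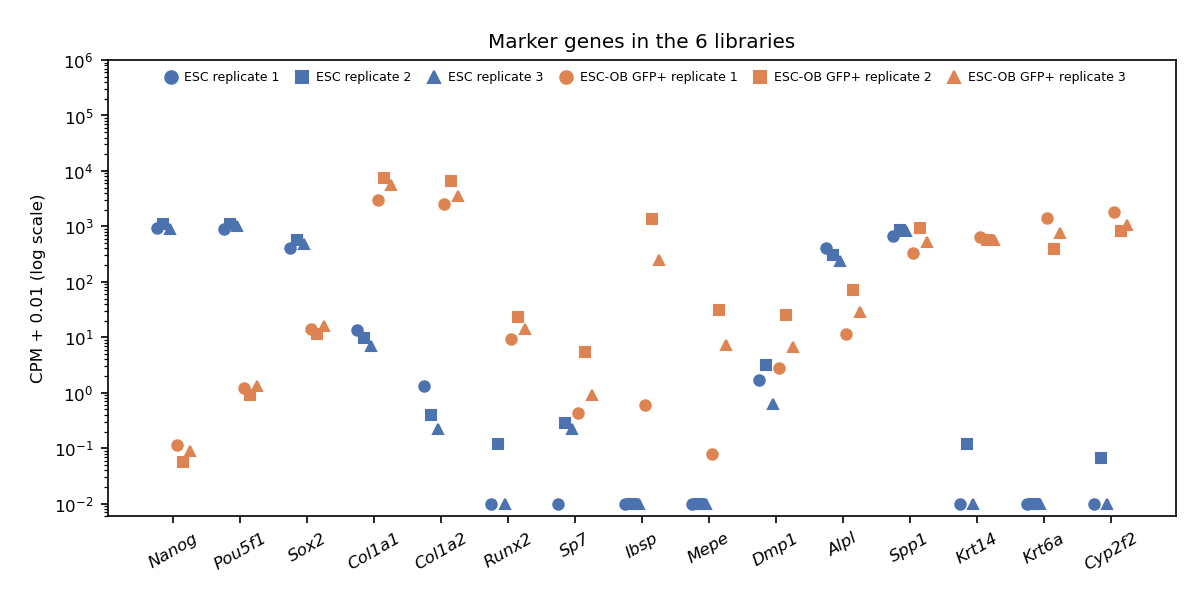
Level of 15 marker genes in each library, as CPM with 0.01 added on a log axis. Points are single libraries, blue for ESC and orange for ESC-OB GFP+, with the replicate number as the shape. *Nanog* and *Pou5f1* separate the groups downwards, both type I collagen genes and *Krt14* separate them upwards, and *Ibsp* runs from 0.587 to 1379.5 CPM within ESC-OB GFP+ libraries.

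Most genes differed between the populations. Of 15417 genes that passed the filter on low counts, 6631 were higher in ESC-OB GFP+ cells (43.0%) and 5353 were lower (34.7%), at an adjusted p under 0.05 in edgeR's quasi-likelihood test. The median log2 fold change over all genes tested was 0.22, so changes are to be read against that shift, and the quartiles were -1.18 and 2.06. Given these shares, 77.7% of genes in all, a call alone sets no gene apart, and every list count below is to be read against these backgrounds. A gene near 0 in 1 group passes the filter only through the other group, so its direction was set in advance. In bulk libraries, fewer cells of a type and less RNA per cell cannot be told apart.

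The pluripotency network was nearly lost. Of 30 tested members, 29 fell and 1 rose, with a median log2 fold change of -8.11, and their summed level was 11626 to 13664 CPM in ESC and 753 to 951 CPM in ESC-OB GFP+ libraries. *Tdh*, the threonine dehydrogenase that ESC rely on, was at 732, 888 and 747 CPM in ESC and had 0, 0 and 1 counts in ESC-OB GFP+ libraries. *Fgf4*, a growth factor made by ESC, was at 189, 247 and 211 CPM and had no count afterwards, at least 5797-fold lower. *Gdf3*, a TGF-beta family ligand, likewise went from 124, 169.8 and 157 CPM to no count, at least 4009-fold lower. For *Esrrb*, an orphan nuclear receptor of naive ESC, 674, 815 and 695 CPM in ESC stood against 0, 1 and 1 counts in the 3 ESC-OB GFP+ libraries. These genes left nearly no signal in any ESC-OB GFP+ library. *Pou5f1* kept 1.21, 0.913 and 1.33 CPM from 909.6, 1117 and 1004 CPM. *Sox2*, which many epithelia also use, kept 14.3, 11.4 and 16.1 CPM from 402, 571 and 491 CPM, a log2 fold change of -5.13 ± 0.23. *Tfcp2l1*, a factor of naive ESC, kept 56.9, 29.1 and 54.4 CPM. The Kruppel-like factors had the smallest changes in the list: *Klf2* (-0.75 ± 0.26) and *Klf4* (-0.48 ± 0.16) fell slightly on the log2 scale, calls lost for *Klf2* without ESC replicate 2 (-0.69) or ESC-OB GFP+ replicate 3 (-0.69) and for *Klf4* without ESC-OB GFP+ replicate 1 (-0.34), and *Klf5*, at 179.5, 239 and 214 CPM in ESC and 356, 255 and 375 CPM in ESC-OB GFP+ libraries, rose (0.64 ± 0.19), a call that was lost with ESC replicates 2 and 3 summed (0.62). *Lin28a* and *Utf1* differed within ESC, at 50.0, 225 and 252 and 5.53, 58.9 and 68.3 CPM, with replicate 1 the lowest in both.

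Other programs of early embryos and of the germline fell with it. Of 12 tested genes of epiblast and primitive streak, 8 fell and 2 rose (11 and 2 of the 18 with no filter). *Nodal*, the ligand that patterns the epiblast, went from 73.4, 84.3 and 76.2 CPM to 0.0345, 0 and 0 CPM, and its inhibitor *Lefty2* from 355, 483 and 426 to 0.0691, 0.365 and 0.0402 CPM (log2 fold change -11.42 ± 0.44). *Pou3f1* rose at low levels, from 1.84, 1.78 and 1.89 to 7.22, 8.76 and 9.57 CPM (2.22 ± 0.33). All 17 tested genes of the 2-cell-like state fell, including *Zscan4c* (91.1, 62.2 and 31.2 CPM in ESC, no count in ESC-OB GFP+ libraries, at least 1577-fold lower), whose near-identical copies share reads. Of 18 tested germline genes, 17 fell, with a median of -5.68 (18 of the 20 with no filter, with a median of -5.20). *Hormad1*, a protein of meiotic chromosome axes, was at 79.8, 130.4 and 103 CPM in ESC and had 0, 2 and 0 counts in ESC-OB GFP+ libraries, and *Dazl*, an RNA-binding protein of germ cells, went from 39.3, 21.7 and 13.6 CPM to 0.138, 0 and 0 CPM (-8.71 ± 0.72).

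Enzymes of DNA methylation and Polycomb subunits fell in part. Of 16 genes of DNA methylation, 10 fell and 3 rose. *Tet1*, which oxidizes methylcytosine, went from 529.7, 965 and 852 to 1.90, 5.25 and 4.06 CPM (-7.72 ± 0.43), *Uhrf1*, which brings the maintenance enzyme to replicated DNA, from 637, 892 and 786 to 23, 9.22 and 21.3 CPM (-5.43 ± 0.36), and *Dnmt3b*, a de novo methyltransferase, from 57.9, 143 and 132 to 7.84, 7.07 and 8.73 CPM (-3.82 ± 0.32). *Mbd2*, a reader of methylated DNA, rose from 10.9, 10.6 and 10.5 to 141, 135 and 148 CPM (3.73 ± 0.16). Of 29 Polycomb subunits, 17 fell and 8 rose. *Ezh2*, the catalytic subunit of PRC2, fell from 163, 214 and 183 to 16.5, 15.3 and 14.2 CPM (-3.61 ± 0.18), and its partner *Jarid2* from 392, 502 and 457 to 34.5, 38.2 and 36.5 CPM (-3.63 ± 0.18). The PRC1 subunits *Phc2* (3.22 ± 0.22) and *Ring1* (3.17 ± 0.20) rose.

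Most transcription factors of the osteoblast lineage rose, but *Sp7* and *Dlx5* stayed scarce. Of 30 members in the table, 25 passed the filter; 22 of these were higher, 1 was lower and 2 did not pass the test, with a median log2 fold change of 5.44. *Osr1*, a factor of early mesenchyme, had no count in ESC and 91.8, 94 and 67.3 CPM in ESC-OB GFP+ libraries, at least 794-fold higher. *Prrx1*, a homeobox gene of limb mesenchyme, was at 0, 0.0555 and 0 CPM in ESC and 19.2, 60.5 and 44.5 CPM in ESC-OB GFP+ libraries, a ratio of 1113-fold (95% counting interval 199.6 to 43971). *Mef2c* and *Twist2* also had no count in ESC and were at 10.3, 20.0 and 13.1 and 4.91, 15.6 and 9.17 CPM in ESC-OB GFP+ libraries, at least 132- and 88.5-fold higher. In *Prrx1*, *Mef2c* and *Twist2*, replicate 1 was the lowest and replicate 2 the highest ESC-OB GFP+ library. *Creb3l1*, which drives collagen secretion, rose from 2.03, 3.22 and 2.72 to 152, 120.3 and 175 CPM (5.74 ± 0.25). The member that fell was *Cbfb*, the partner of the Runx proteins (81.8, 96.6 and 90.7 CPM in ESC and 38, 40.3 and 44.3 CPM in ESC-OB GFP+ libraries, -1.14 ± 0.15). *Sp7* (osterix), needed after *Runx2*, did not pass the filter: its counts were 0, 5 and 1 in the ESC libraries and 12, 118 and 22 in the ESC-OB GFP+ libraries, the latter 0.415, 5.39 and 0.885 CPM. *Dlx5*, another osteoblast factor, had 0, 31 and 8 counts in ESC-OB GFP+ libraries and none in ESC. For both, replicate 2 held the most counts. *Atf4*, a factor of osteoblast protein synthesis, was not called (0.26 ± 0.19).

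Bone matrix genes were among the largest rises. Of 28 in the table, 25 were tested, 21 were higher, 1 was lower and 3 were not called, with a median log2 fold change of 8.40. Their summed level was 3196 to 3615 CPM in ESC and 18384 to 31862 CPM in ESC-OB GFP+ libraries. *Col1a1*, the alpha 1 chain of type I collagen (chr11:94797538-94814356 on mm9, plus strand) and the source of the sorting promoter, was at 13.5, 9.60 and 6.91 CPM in ESC and 2975, 7303 and 5564 CPM in ESC-OB GFP+ libraries, a log2 fold change of 9.04 ± 0.46. Since the gate selects on its promoter, this rise is not independent of the sort. *Col1a2*, the alpha 2 chain, was at 1.29, 0.388 and 0.209 CPM in ESC and 2499.6, 6659 and 3546 CPM in ESC-OB GFP+ libraries (12.89 ± 0.63). Both chains were lowest in replicate 1 and highest in replicate 2, as was *Mgp* (matrix Gla protein, an inhibitor of calcification), at 169, 678 and 261 CPM against 1, 0 and 0 counts in ESC, a ratio of 9775-fold (95% counting interval 1754 to 386100.0). *Dcn* (decorin, a proteoglycan on collagen fibrils) had no count in ESC and 484, 986 and 459 CPM in ESC-OB GFP+ libraries, at least 5844-fold higher. The member that fell was *Fn1* (fibronectin), which ESC already express, from 2173, 2008 and 1689 to 789, 1044 and 1131 CPM (-0.99 ± 0.20). *Spp1* was not called (-0.40 ± 0.31, adjusted p = 0.26, edgeR): ESC held 657, 877 and 819.7 CPM and ESC-OB GFP+ libraries 333, 922 and 526 CPM, so that the groups overlapped. Without ESC-OB GFP+ replicate 2, *Spp1* was called lower (-0.80).

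*Bglap*, *Bglap2*, *Mepe* and *Dmp1* were low beside *Ibsp* in replicates 2 and 3, and uneven. *Bglap*, whose copy *Bglap2* shares reads with it, had 2, 29 and 2 counts in ESC-OB GFP+ replicates 1, 2 and 3 and none in ESC, and *Bglap2* had 2, 14 and 5 against 3, 2 and 0. Neither passed the filter. *Mepe*, a SIBLING protein of osteocytes, had no count in ESC and 2, 668 and 177 counts in ESC-OB GFP+ libraries, or 0.0691, 30.5 and 7.12 CPM; it did not pass the filter either, and is at least 105-fold higher on average. *Dmp1*, a SIBLING protein of osteocytes that ESC carry at a trace, was at 1.66, 3.16 and 0.628 CPM in ESC and 2.80, 25.5 and 6.64 CPM in ESC-OB GFP+ libraries (2.50 ± 0.78). The *Dmp1* call was lost without ESC-OB GFP+ replicate 2 (1.33). In each of the 4 SIBLING genes, replicate 2 was the highest of the 3 libraries and replicate 1 the lowest, and in *Dmp1* replicate 1 lay within the range of ESC. These 4 genes were made a list after values were seen. The order is not particular to them, since 20 of 26 bone matrix genes were highest in replicate 2.

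Of 20 genes of mineralization, 15 were higher and 3 lower, with a median of 2.07. *Alpl* (tissue-nonspecific alkaline phosphatase), which serves mineralization in bone and is also abundant in ESC, fell from 401, 299 and 239.8 to 11.4, 70.7 and 28.6 CPM (-3.09 ± 0.53); its level in ESC-OB GFP+ libraries again was lowest in replicate 1 and highest in replicate 2. *Pth1r*, the receptor of parathyroid hormone, rose from 0.184, 0.277 and 1.05 to 301, 246 and 264 CPM (9.37 ± 0.35), with the 3 ESC-OB GFP+ libraries close together. *Enpp1*, which makes the mineralization inhibitor pyrophosphate, was at 0.369, 0.0555 and 0 CPM in ESC and 14, 16.4 and 14.7 CPM in ESC-OB GFP+ libraries, a ratio of 140.3-fold (95% counting interval 47.9 to 681). *Phex*, an endopeptidase of osteocytes, rose to 0.622, 11.4 and 3.10 CPM from 0.184, 0.610 and 0.419 CPM (3.43 ± 1.00), most of it in replicate 2. *Phospho1*, which releases phosphate inside matrix vesicles, was not called (-0.25 ± 0.58). Of 18 osteocyte genes in the table, 13 were tested and all 13 rose, with a median of 3.46. *Tnfrsf11b* (osteoprotegerin, the decoy that blocks osteoclast formation) had no count in ESC and 18.7, 35.5 and 19.2 CPM, at least 223-fold higher. *Sost* (sclerostin), the marker of mature osteocytes, had 0, 4 and 0 counts.

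Cartilage genes rose too, without the main cartilage collagen. Of 18 tested, 14 were higher and 1 was lower (15 and 2 of the 22 with no filter). *Sox9*, the chondrocyte master regulator that many epithelia also use, was at 0, 0.0555 and 0 CPM in ESC and 45.5, 94.4 and 65.5 CPM in ESC-OB GFP+ libraries, a ratio of 1868-fold (95% counting interval 335 to 73781). *Col11a1* rose from 1.11, 0.444 and 0.628 to 60.3, 116 and 105 CPM (7.21 ± 0.40). *Col2a1*, the main collagen of cartilage, fell from 27.1, 21.5 and 15.5 to 9.43, 11.1 and 16.2 CPM (-0.81 ± 0.28), with overlapping groups, and the call was lost without ESC replicate 1 or 2 or without ESC-OB GFP+ replicate 1 or 2 (-0.58 to -0.81). *Acan* (aggrecan) was not called (-1.19 ± 0.51), but was called lower by DESeq2 (-1.18), with no filter on low counts (-1.17), with the replicate block (-1.37), with libraries thinned (-1.08) and without ESC-OB GFP+ replicate 2 (-1.96).

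The machinery that makes collagen rose with the collagens. Of 32 genes of collagen folding, modification and cross-linking, 28 were higher, 1 was lower and 3 were not called, with a median of 2.77. *Lox* (lysyl oxidase, which cross-links collagen) rose from 0.184, 0.277 and 0 to 775, 1343 and 1233 CPM (12.34 ± 0.45), and *Adamts2*, which trims procollagen, from 1.29, 0.777 and 0.419 to 91.4, 145 and 109 CPM (7.12 ± 0.32). *P4ha3*, a prolyl 4-hydroxylase subunit, rose from 0.184, 0.222 and 0 to 34.5, 29.6 and 42.2 CPM (7.61 ± 0.41). *Pcolce2*, an enhancer of procollagen cleavage, fell from 15.5, 51.6 and 53.6 to 0.898, 4.34 and 1.09 CPM (-4.29 ± 0.64). The list of 15 vesicle trafficking genes was chosen by the study, on these libraries among others and then by the effect of their knockdown on mineralized nodules, so their direction is not independent: 14 were higher and 1, *Golga4*, was not called (0.34 ± 0.16). *Golga4* was called higher by DESeq2 (0.34), with other scaling factors, and without any 1 of the ESC-OB GFP+ libraries (0.38 to 0.45). *Ramp1*, a partner of calcitonin-family receptors, had no count in ESC and 25, 39.4 and 26.3 CPM in ESC-OB GFP+ libraries, at least 278-fold higher. The others rose by 0.88 to 2.32 on the log2 scale. *Sec24d*, the COPII coat subunit that loads procollagen, was at 52.9, 43.4 and 34.6 CPM in ESC and 196, 175 and 221 CPM in ESC-OB GFP+ libraries (2.18 ± 0.19), *Stx5a*, a Golgi SNARE, rose by 2.32 ± 0.15 and *Arf4*, a Golgi GTPase, by 2.14 ± 0.17. In none of the 15 did the highest ESC-OB GFP+ library reach 2-fold over the lowest, which 17.1% of tested genes at 1 CPM or more did.

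Genes of mesenchyme at large rose to high levels. Of 25 fibroblast and pericyte genes, 22 were higher and 1 was lower, with a median of 6.48 (6.26 when the bound is used for 1 member without a count in ESC). *Col3a1* (type III collagen) rose from 1.66, 0.0555 and 0.209 to 2228, 3005 and 2729 CPM (12.58 ± 0.63), *Col6a1* (type VI collagen) from 0.737, 0.444 and 0.209 to 670.0, 1186 and 1071 CPM (11.02 ± 0.40) and *Acta2* (smooth muscle actin) from 0.369, 0.333 and 0.209 to 459, 723 and 229 CPM (10.50 ± 0.58). *Thy1* fell from 0.553, 8.10 and 7.54 to 0.795, 2.15 and 0.885 CPM (-2.12 ± 0.74), with overlapping groups. The *Thy1* call was lost without ESC replicate 2 or 3 or without ESC-OB GFP+ replicate 1 or 3 (-1.66 to -1.86). Of 14 adipocyte and stromal genes in the table, 11 passed the filter and were higher. With no filter, 11 of the 14 were higher and 1, *Cfd* (adipsin, 0, 4 and 1 counts in ESC and 0, 0 and 0 in ESC-OB GFP+ libraries), was lower, and the median log2 fold change was 4.23 in place of 6.63. Among those that rose was *Fabp4* (the fatty acid binding protein of adipocytes), with no count in ESC and 71.8, 252 and 115 CPM, at least 1301-fold higher. *Cxcl12*, the chemokine of marrow stroma, rose from 0.369, 0.499 and 0.419 to 143, 309 and 205 CPM (8.88 ± 0.41). Of 20 tested matrix proteases and inhibitors, 16 were higher and 2 lower (17 and 2 of the 22 with no filter). *Mmp13*, the collagenase of osteoblasts and hypertrophic cartilage, had no count in ESC and 38.3, 506 and 408 CPM in ESC-OB GFP+ libraries, at least 2775-fold higher, with replicate 1 far below the others. *Mmp3* (stromelysin) also had no count in ESC, with 115, 222 and 171 CPM afterwards.

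**Figure D2:**
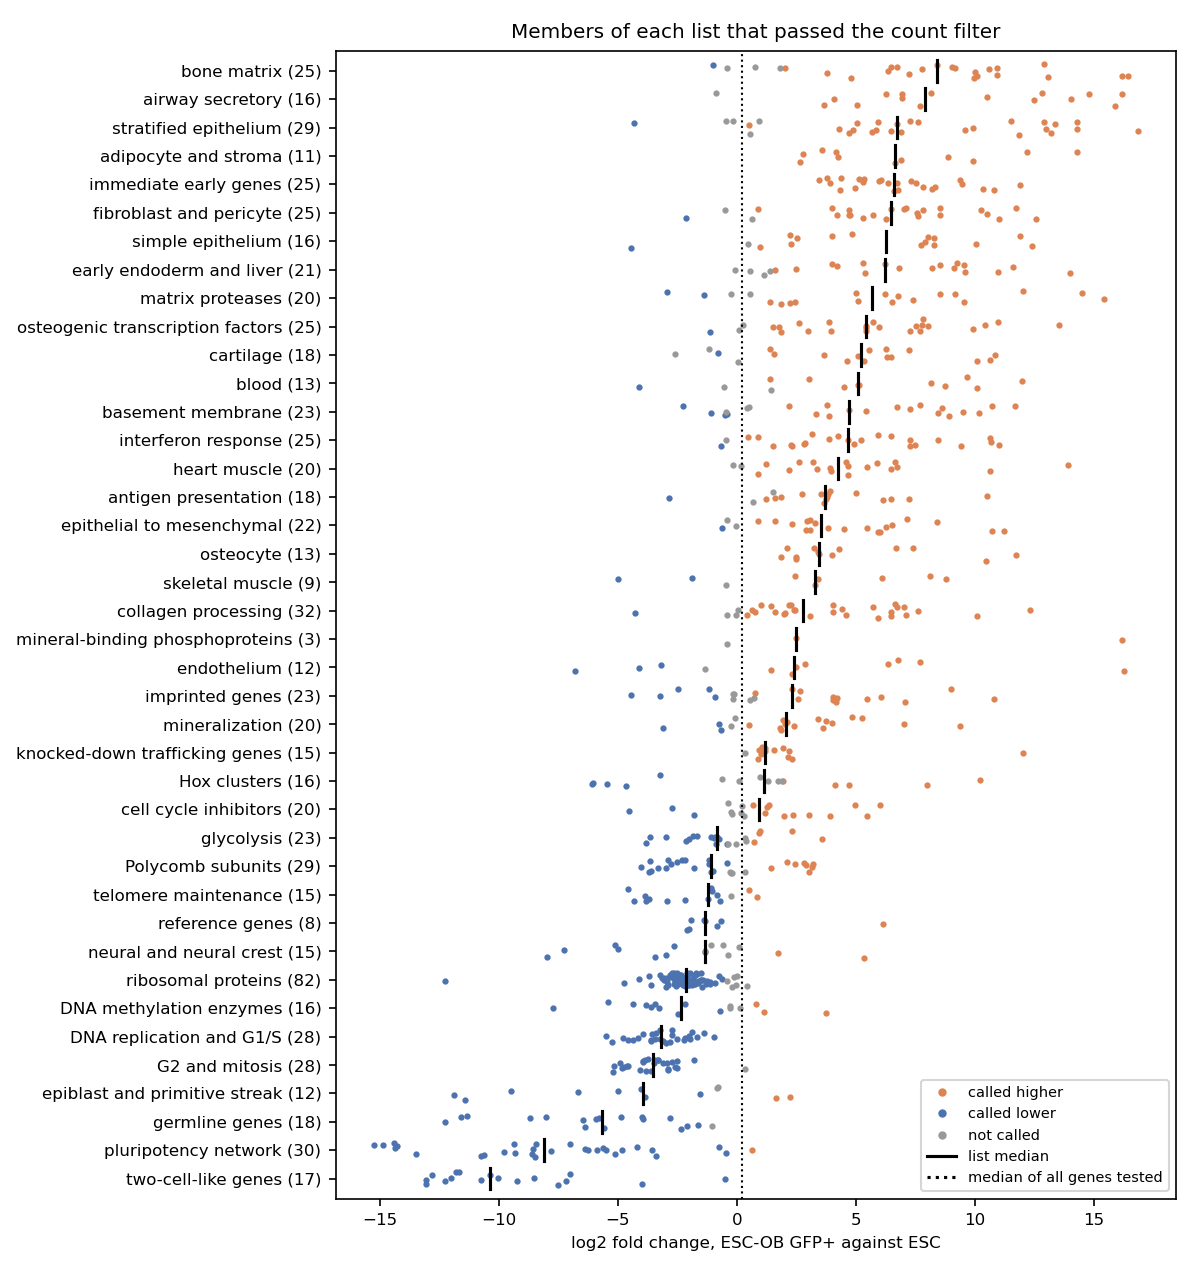
Log2 fold change of ESC-OB GFP+ against ESC for every tested member of 40 gene lists, with the number tested in brackets. Points are genes (orange called higher, blue called lower, grey not called), black bars are list medians and the dotted line is the median of all genes tested, 0.22. Bone matrix has a median of 8.40 and airway secretory genes one of 7.92. With genes at 0 counts in ESC set to their bounds, these medians are 8.40 and 6.58. Without bounds, airway genes are the higher with a filter at 1 CPM (9.32 against 8.41) and with libraries thinned (10 airway genes tested). They are also the higher with ESC replicates 2 and 3 summed and without ESC replicate 2 (10.1 against 8.89) or 3. The 2-cell-like genes have a median of -10.36 (-8.25 with genes at 0 counts in ESC-OB GFP+ libraries set to their bounds).

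Epithelial genes rose in the sorted cells to high levels. Of 29 tested genes of stratified epithelium, 24 were higher and 1 was lower, with a median of 6.73 (6.47 when bounds are used for 6 members without a count in ESC). With no filter, 27 of the 33 genes were higher and 1 was lower, with a median of 5.94. Their summed level was 9693, 5095 and 7115 CPM in ESC-OB GFP+ replicates 1 to 3, against 299.7 to 358 CPM in ESC, and it was highest in replicate 1 and lowest in replicate 2. *Krt6a*, a keratin of wounded and inner follicle epithelium, had no count in ESC and 1414, 392 and 744 CPM in ESC-OB GFP+ libraries, at least 8448-fold higher; the similar *Krt6b*, with which it may share reads, had 229, 63.4 and 136 CPM. *Dsg3*, a desmosomal cadherin of basal keratinocytes, had no count in ESC and 114, 34 and 77.6 CPM, and *Ly6d* no count and 175, 121 and 141 CPM. *Krt15*, a keratin of basal stem cells, reached 2896, 1200.5 and 1951 CPM from 0.184, 0.277 and 0 CPM (13.19 ± 0.56), and *Krt5*, the partner of *Krt14*, 404, 291 and 302 CPM. *Trp63*, the basal cell master regulator, was at 44.1, 29.2 and 33.1 CPM. Per kilobase of merged exon, the mean level was 1127 CPM for *Krt15* and 335 for *Krt14*, against 805 for *Col1a1* and 2187 for *Sparc*. *Tgm3*, a transglutaminase of cornified layers, fell from 0.737, 6.16 and 8.38 to 0.276, 0 and 0.443 CPM (-4.34 ± 0.94). Of 16 genes of simple epithelium, 14 were higher, among them *Krt7* (1.29, 0.999 and 0.209 CPM in ESC and 1494, 577 and 829.6 CPM in ESC-OB GFP+ libraries, 10.05 ± 0.53) and *Krt19* (3.69, 4.50 and 2.30 CPM in ESC and 1696, 721 and 1079.8 CPM in ESC-OB GFP+ libraries, 8.29 ± 0.42). *Cdx2*, a gut and trophectoderm factor, fell from 10.7, 0.832 and 1.26 to 0.242, 0 and 0.282 CPM (-4.45 ± 1.10).

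Airway and endoderm markers rose as well. Of 16 tested airway genes, 15 were higher and none lower, with a median of 7.92 (6.58 when bounds are used for 7 members without a count in ESC), and their summed level was 3680.5, 2981 and 2889.5 CPM in ESC-OB GFP+ libraries against at most 3.5 CPM in ESC. With no filter, 15 of the 20 airway genes were higher and none lower, with a median of 6.93. *Cyp2f2*, a cytochrome P450 of club cells, was at 1786, 824 and 1051 CPM and 0, 1 and 0 counts in ESC. *Bpifa1*, a secreted defence protein of upper airways, had no count in ESC and 315, 716 and 579.6 CPM, at least 4871-fold higher, and *Cbr2*, a carbonyl reductase of lung, no count and 511, 454 and 334 CPM, at least 4103-fold higher. *Ltf* (lactoferrin) was at 839, 659 and 704 CPM. *Scgb1a1*, the club cell secretoglobin, was at 117, 187 and 34 CPM, highest in replicate 2. Of 21 tested genes of early endoderm and liver, 17 were higher and none lower (19 of the 23 higher and none lower with no filter). *Ttr* (transthyretin) had no count in ESC and 102, 169 and 78.6 CPM, at least 1068-fold higher, *Alb* (albumin) none and 11, 28.7 and 4.22 CPM, and *Sox17*, an endoderm and endothelial factor, 0, 0.166 and 0.419 CPM in ESC and 207, 73.9 and 151 CPM (9.60 ± 0.60). *Alb* and *Ttr* were highest in replicate 2 and lowest in replicate 3, and *Sox17* was lowest in replicate 2. The share of epithelial, airway or endoderm cells behind the gate was not tested, and no value here separates cells that carry both programs from a mixture.

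Markers of blood, endothelium and muscle gave mixed pictures. *Ptprc* (CD45), which defines leukocytes, had 1, 0 and 4 counts in ESC-OB GFP+ libraries, and *Emr1* (F4/80) had 10, 4 and 4. Neither passed the filter. Of 23 blood genes, 13 were tested, and 10 of these were higher and 1 was lower. With no filter, 11 of the 23 were higher and 3 lower. Those that rose included *Cd14* (143, 132 and 104 CPM), *Lyz2* (15.9, 57.7 and 13.8 CPM, none in ESC) and *Ctsk* (cathepsin K, 37.2, 72.8 and 78 CPM). Of 17 endothelial genes, 12 were tested, with 8 higher and 3 lower (9 and 3 of the 17 with no filter). *Cdh5* (VE-cadherin) was at 11.6, 4.97 and 8.01 CPM against 0, 2 and 0 counts in ESC, a ratio of 120.2-fold (95% counting interval 33.1 to 995), and *Flt1*, a VEGF receptor, rose from 0.553, 0.388 and 0.209 to 74.3, 81 and 89.4 CPM (7.68 ± 0.28). *Pecam1*, which ESC also carry, fell from 116, 120.0 and 97.6 to 0.760, 1.64 and 0.684 CPM (-6.78 ± 0.31). Of 20 heart muscle genes, 18 were higher and none lower, and *Tnnt2* (cardiac troponin T) rose from 3.50, 0.943 and 1.89 to 142, 215 and 215 CPM (6.73 ± 0.40). *Myl3* had no count in ESC and 147, 81.1 and 102 CPM. Of 20 skeletal muscle genes, only 9 were tested, with 6 higher and 2 lower (8 and 3 of the 20 with no filter). Neural genes did not follow: of 15 tested, 2 were higher and 8 lower (3 and 8 of the 22 with no filter). *Tubb3* (neuronal tubulin) fell from 37, 96.6 and 97.8 to 1.87, 2.10 and 2.66 CPM (-5.13 ± 0.38), and *Gfap*, a glial filament protein, rose to 2.04, 21.6 and 7.72 CPM from 0.369, 0.222 and 0.209 CPM (5.33 ± 0.96). Of 36 Hox genes in the table, 16 were tested, with 5 higher and 5 lower (31.25% each, against 43.0% and 34.7% of all genes tested). The summed level of the Hox genes in ESC-OB GFP+ libraries was 21.8, 42.1 and 20.9 CPM. *Hoxb2* had no count in ESC and 6.46, 14.5 and 4.47 CPM.

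Cadherins of both kinds were present in the sorted cells. A list of 22 genes of the epithelial to mesenchymal transition joins its epithelial side, such as *Cdh1*, with its mesenchymal side, such as *Cdh11*. Of these, 19 were higher and 1 was lower, so genes of both sides rose. The count alone gives no direction of a transition. *Cdh11*, the osteoblast cadherin, was at 85.2, 164 and 145 CPM against 0, 2 and 0 counts in ESC, a ratio of 1804-fold (95% counting interval 499 to 14896). *Cdh1* (E-cadherin) was at 320.0, 457 and 409 CPM in ESC and 319, 169 and 273 CPM in ESC-OB GFP+ libraries (-0.64 ± 0.24), with replicate 1 level with ESC and replicate 2 the lowest; the call was lost without ESC replicate 2 or 3, or without ESC-OB GFP+ replicate 2 or 3 (-0.34 to -0.62). *Tgfb3* was at 0, 0.0555 and 0 CPM in ESC and 77.7, 136 and 86.7 CPM in ESC-OB GFP+ libraries.

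Cell division genes fell. All 28 genes of DNA replication and G1/S were lower, with a median of -3.18, and so were 27 of 28 genes of G2 and mitosis, with a median of -3.54. *Mki67*, the antigen of cycling cells, fell from 610.1, 597 and 547 to 18.7, 14.1 and 15.6 CPM (-5.18 ± 0.20), *Top2a* (topoisomerase II alpha) from 1028, 1273 and 1135 to 41.4, 24.1 and 27.3 CPM (-5.21 ± 0.26) and *Mcm5*, of the replicative helicase, from 485, 573 and 497 to 25.7, 16.8 and 22.1 CPM (-4.59 ± 0.22). The summed level of the mitotic list was 6194 to 7223 CPM in ESC and 649.6, 316 and 477 CPM in ESC-OB GFP+ replicates 1, 2 and 3, so that replicate 1 kept the most and replicate 2 the least. Of a list of 20 that joins inhibitors of the cell cycle, p53 pathway genes and the D cyclins *Ccnd1*, *Ccnd2* and *Ccnd3*, which drive G1 instead, 11 were higher and 3 lower. These shares, 55% and 15%, stand beside 43.0% and 34.7% of all genes tested. *Ccnd2* rose from 1.29, 8.71 and 7.12 to 394, 437 and 372 CPM (6.03 ± 0.45). *Cdkn1c* (p57) rose from 5.71, 11.8 and 10.9 to 237, 559.8 and 498 CPM (5.48 ± 0.39) and *Btg2*, an antiproliferative gene, from 45.2, 44.5 and 45.5 to 1054, 1596 and 1522 CPM (4.95 ± 0.23), whereas *Cdkn2a* fell from 25.8, 19.1 and 13 to 0.898, 1.19 and 0.443 CPM (-4.52 ± 0.42) and *Trp53* from 337, 466 and 421 to 59.8, 62.3 and 62.8 CPM (-2.73 ± 0.18). Of 15 telomere genes, 12 were lower and 2 higher. *Tert*, the catalytic subunit of telomerase, fell from 19.5, 18.4 and 17.8 to 1.93, 0.456 and 1.81 CPM (-3.70 ± 0.45), and *Dkc1*, which stabilizes telomerase RNA, from 485, 566 and 488 to 30.5, 25.1 and 22.1 CPM (-4.31 ± 0.20).

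Most ribosomal protein genes fell. Of 82 tested, 76 were lower and none higher, with a median of -2.12, and their summed level went from 66809, 69659 and 61374 to 13533, 21295 and 13161 CPM. This list was made after values were seen. *Rps12* fell from 1000.3, 1057 and 955 to 42.4, 86.4 and 46.9 CPM (-4.10 ± 0.29), while *Rps19* was at 553, 522 and 495 CPM in ESC and 429.6, 689 and 451 CPM in ESC-OB GFP+ libraries (0.00 ± 0.21). Among the most abundant genes of ESC, *Eef1a1* (elongation factor 1 alpha) fell from 10090.0, 10411 and 9002 to 1589, 2212 and 1383 CPM (-2.51 ± 0.24), *Npm1* (nucleophosmin) from 2965, 4286 and 3742 to 180.4, 258 and 166 CPM (-4.18 ± 0.26) and *Hsp90aa1* from 6865, 7511 and 6610.4 to 754, 631 and 468 CPM (-3.50 ± 0.24). *Ptma*, *Eef2*, *Hsp90ab1*, *Hspa8*, *Lars2* and *Actb* completed the 10 most abundant with *Rn45s*, and all of them fell, by 0.83 (*Actb*) to 4.18 (*Npm1*) on the log2 scale. Of 23 genes of glycolysis, 14 were lower and 5 higher. The glucose transporter *Slc2a3* fell from 2005, 1478 and 1161 to 127, 48 and 154 CPM (-3.82 ± 0.41) and *Hk2* (hexokinase 2) from 326, 488 and 441 to 19.6, 49.5 and 31.4 CPM (-3.64 ± 0.33). Of 8 reference genes of qPCR, 7 fell and *B2m* rose (17, 10.7 and 7.96 CPM in ESC and 715, 1070.2 and 703 CPM in ESC-OB GFP+ libraries, 6.13 ± 0.33). *Gapdh* had a log2 fold change of -2.02 ± 0.21, *Hprt* -1.37 ± 0.18, *Ppia* -1.34 ± 0.18, *Rplp0* -1.95 ± 0.20, *Rpl13a* -2.10 ± 0.22 and *Tbp* -0.65 ± 0.20. The *Tbp* call was lost without ESC replicate 2 (-0.52). Genes at 100 CPM or more with the smallest differences included *Psmd4*, a proteasome subunit (157, 185 and 163 CPM in ESC and 168, 174 and 163 CPM in ESC-OB GFP+ libraries), *Copb2*, a COPI coat subunit (275, 261 and 229.8 CPM in ESC and 283, 232 and 249 CPM in ESC-OB GFP+ libraries), *Psmb6*, *Tjp1*, *Gabarapl2*, *Ppp2r2a*, *Snx2*, *Mfap1b* and *Atpif1*.

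Immediate early genes and several basement membrane genes rose to high levels in ESC-OB GFP+ libraries, and both lists were made after values were seen. All 25 immediate early genes were higher, with a median of 6.59 and a summed level of 335 to 386 CPM in ESC and 20943 to 27137 CPM in ESC-OB GFP+ libraries. *Egr1* rose from 0.553, 0.555 and 1.26 to 2706, 2855 and 2358 CPM (11.88 ± 0.34) and *Fos* from 0.737, 1.89 and 1.26 to 1924, 2303 and 1550.5 CPM (10.35 ± 0.36). Such genes also respond to dissociation and sorting, and whether the ESC were sorted is not given in the sources used here, and the part of handling was not tested. Of 23 basement membrane genes, 16 were higher and 4 lower. *Col4a1* (collagen IV alpha 1) rose from 14, 15.9 and 13.4 to 8109, 3735 and 9115 CPM (8.91 ± 0.43), with the least in replicate 2, where type I collagen was highest. *Sparc* (osteonectin), abundant in bone and in basement membranes alike, rose from 501, 576 and 542 to 8069.6, 6695 and 7324 CPM (3.77 ± 0.21), and *Hspg2* (perlecan) fell from 595, 679.7 and 576 to 123, 143 and 124 CPM (-2.25 ± 0.17). *Col1a1*, *Col1a2*, *Malat1*, *Ubb*, *Ftl1*, *Fth1* and *Rn45s* were also among the 10 most abundant genes of ESC-OB GFP+ cells, with *Sparc* and *Col4a1*. *Malat1*, a nuclear RNA, rose by 2.54 ± 0.26 on the log2 scale.

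Genes of antigen presentation and of the interferon response rose. Of 18 genes of antigen presentation, 15 were higher and 1 was lower. *H2-D1*, an MHC class I heavy chain, rose from 1.47, 2.50 and 1.05 to 299, 263 and 306 CPM (7.24 ± 0.28) and *Tap2*, the peptide transporter, from 1.11, 1.17 and 0.209 to 82.3, 97.1 and 77.6 CPM (6.48 ± 0.31); MHC class I genes share sequence, so single members are uncertain. *H2-Eb1* fell from 47.6, 49.7 and 47.6 to 9.33, 4.70 and 6.12 CPM (-2.84 ± 0.26). Of 25 interferon genes, 23 were higher and 1 was lower. *Ifit3* was at 0, 0.0555 and 0 CPM in ESC and 74.2, 96.9 and 91.9 CPM in ESC-OB GFP+ libraries, a ratio of 2444-fold (95% counting interval 439 to 96554), and *Oasl2* rose from 0.369, 0.166 and 0 to 137, 121 and 118 CPM (9.41 ± 0.34). Within ESC-OB GFP+ cells, 1 of 18 antigen presentation and 2 of 25 interferon genes ranged 2-fold or more, against 17.1% of tested genes at 1 CPM or more. Of 23 imprinted genes, 13 were higher and 5 lower (56.5% and 21.7%, against 43.0% and 34.7% of all genes tested). *Igf2* rose from 0.737, 2.55 and 1.47 to 477, 1315 and 1033 CPM (8.99 ± 0.52), *H19* from 6.45, 10.6 and 3.35 to 253, 801 and 424 CPM (6.07 ± 0.51) and *Dlk1* from 0.737, 0.444 and 0.209 to 586, 1119 and 787 CPM (10.79 ± 0.41), each highest in replicate 2, whereas *Peg10* fell from 326, 273 and 204 to 15.7, 11.3 and 9.33 CPM (-4.47 ± 0.26). *Xist* was at 12.2, 24.1 and 15.1 CPM in ESC and 40.6, 76.9 and 42.2 CPM in ESC-OB GFP+ libraries (1.60 ± 0.31) and *Tsix*, which overlaps it on the other strand, at 4.61, 5.94 and 4.19 CPM in ESC and 0, 0.0456 and 0.443 CPM in ESC-OB GFP+ libraries (-4.89 ± 0.85); counting by strand is not stated, so reads of the pair cannot be told apart. The Y-linked genes *Ddx3y*, *Kdm5d* and *Uty* had at most 2 counts in any library.

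Taken as a group, the 3 ESC-OB GFP+ libraries spread more widely than the 3 ESC libraries, but single pairs overlapped. Over genes at 10 CPM or more in their own group, the median SD of log2 CPM was 0.207 in ESC-OB GFP+ cells (10040 genes) and 0.183 in ESC (8813 genes), and the highest library was at least 2-fold over the lowest in 8.90% and 4.63% of genes. The biological coefficient of variation fitted within the group was 0.272 and 0.181. With all 6 libraries thinned to 1 depth, the shares at 2-fold or more were 10.1% in ESC-OB GFP+ cells and 4.61% in ESC. Pearson's r of log2 CPM between ESC-OB GFP+ libraries was 0.960 (replicates 1 and 2), 0.976 (1 and 3) and 0.971 (2 and 3), across genes, which are not independent replicates. Replicates 1 and 2 were the farthest apart, with 361 genes at 2-fold or more higher in replicate 1 and 412 in replicate 2. Between replicates 1 and 3 these counts were 101 and 167, and between replicates 2 and 3 they were 121 and 126. Among ESC libraries, r was 0.977 (replicates 1 and 2), 0.964 (1 and 3) and 0.985 (2 and 3). ESC replicates 1 and 3 had 248 genes at 2-fold or more higher in replicate 1 and 115 in replicate 3. Between ESC replicates 2 and 3 these counts were 17 and 0, so the narrow ESC spread leans on that pair. A single library cannot be tested against the others, and what follows is a description.

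**Figure D3:**
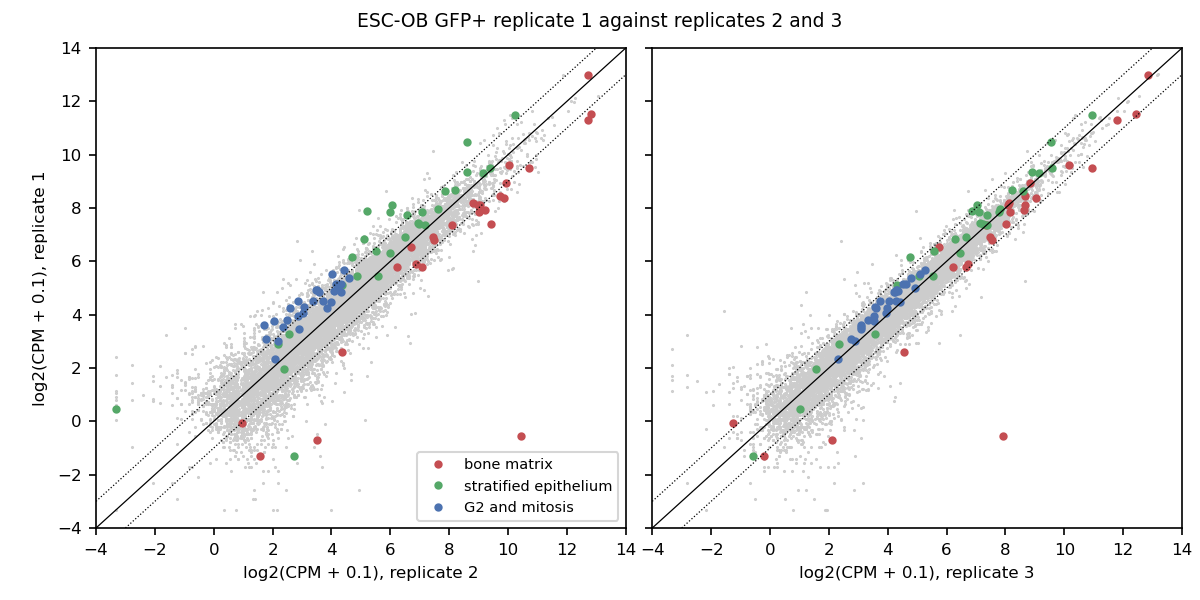
Log2 of CPM + 0.1 in ESC-OB GFP+ replicate 1 (vertical) against replicate 2 (left) and replicate 3 (right) for genes at 1 CPM or more. Grey points are all genes, colours mark 3 lists, the solid line is equality and the dotted lines are 2-fold. Most bone matrix genes lie below the line and most mitotic and stratified epithelial genes above it against replicate 2, and they lie closer to the line against replicate 3.

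Bone and mesenchymal genes were highest in replicate 2, and epithelial and dividing-cell genes in replicate 1. Counting members at 1 CPM or more on average, the numbers highest in replicates 1, 2 and 3 were 1, 20 and 5 for bone matrix, 3, 19 and 3 for fibroblast and pericyte genes, 1, 12 and 4 for cartilage and 1, 15 and 10 for osteogenic transcription factors. They were 21, 3 and 5 for stratified epithelium, 10, 2 and 3 for simple epithelium, 23, 3 and 2 for G1/S and 28, 0 and 0 for G2 and mitosis. Over all genes at 1 CPM or more the numbers were 5058, 5263 and 3702. The median deviation of bone matrix genes from their mean over the 3 libraries was -0.51, 0.57 and 0.01 in replicates 1, 2 and 3 on the log2 scale, and that of mitotic genes was 0.50, -0.61 and 0.09. Bone matrix and mitotic genes thus moved in opposite directions across the libraries, with replicate 3 between. Ribosomal protein genes were highest in replicate 2 in 76 of 79 members, immediate early genes in 19 of 25, and *Rn45s* was highest there as well, at 2665, 6512 and 2926 CPM. Basement membrane genes took another order, with 14 of 23 highest in replicate 3, and 10 of 13 skeletal muscle genes were highest in replicate 3. Collagen processing genes (5, 14 and 13) and the 15 trafficking genes (6, 5 and 4) were divided more evenly.

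**Figure D4:**
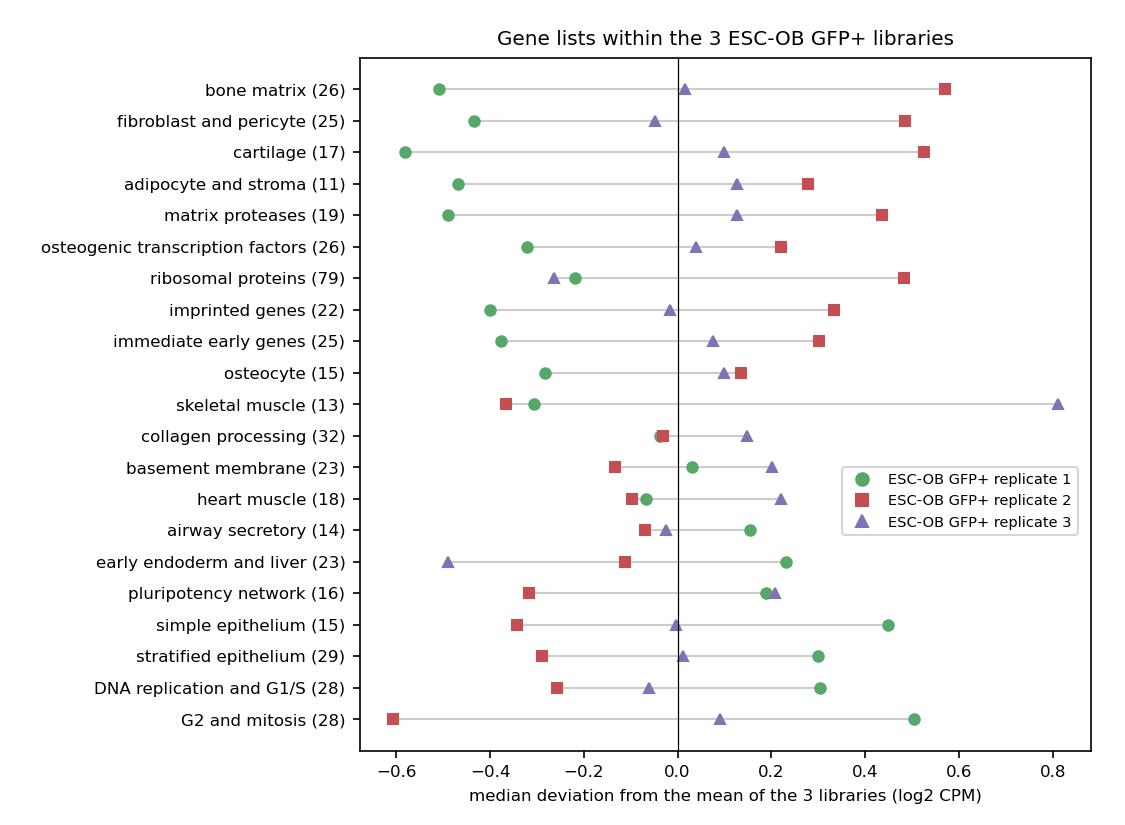
Median deviation of list members from their own mean over the 3 ESC-OB GFP+ libraries, in log2 CPM, with the number of members at 1 CPM or more in brackets. Each mark is a library, green circles for replicate 1, red squares for replicate 2 and purple triangles for replicate 3. Bone matrix runs from -0.51 in replicate 1 to 0.57 in replicate 2, and mitotic genes from -0.61 in replicate 2 to 0.50 in replicate 1.

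The 10 genes with the widest ranges among the 3 libraries, by the highest library over the lowest, had varied roles. *Ibsp* led, with 2349-fold between its highest and lowest library, and *Mepe* followed with 441-fold. *Afp* (alpha-fetoprotein, of yolk sac and fetal liver) was at 4.56, 40.1 and 0.724 CPM in replicates 1, 2 and 3, a 55.3-fold range. *Col22a1*, a collagen of tissue junctions, was at 0.933, 35.1 and 8.81 CPM (37.6-fold), and its rise over ESC, 3.31 ± 1.05, was not called without ESC replicate 2 (3.17) or ESC-OB GFP+ replicate 2 (1.77). *Acta1*, skeletal muscle actin, was at 7.57, 1.96 and 53.8 CPM (27.4-fold). Here replicate 3 stood out and replicate 2 was the lowest. *Mmp13*, given above, ranged 13.2-fold, *Col11a2*, a cartilage collagen at 7.60, 102 and 31 CPM, 13.4-fold, and *Prap1*, a gene of gut and uterine epithelium at 29, 3.10 and 2.21 CPM, 13.1-fold. *Il6* (interleukin 6) was at 3.14, 37.3 and 14.7 CPM and *Heyl*, a Notch target, at 1.59, 16.2 and 18.3 CPM. Replicate 1 was the lowest in 7 of these 10 genes. In all, 82 genes at 10 CPM or more ranged 4-fold or more, 42 of them highest in replicate 2, 33 in replicate 1 and 7 in replicate 3, and 92.7% of the 82 were called higher than in ESC, against 47.5% of all genes at that level.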

How the data were processed

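Total RNA of 3 ESC and 3 ESC-OB GFP+ samples was poly-A selected and sequenced as paired ends. Per the study's methods and the submitters' processing notes, reads were aligned to mm9 with STAR 2.4.2a and RefSeq genes were analysed with DESeq2 in R 3.2.2. The authors deposited raw counts per gene, not normalized; the counting tool, strand setting and treatment of reads with several matches are not given in the sources used here. Of 19781 rows, 27 held symbols that a spreadsheet had turned into dates (0.184% of counts); they stayed in the fit and were not named. Other populations of the series are in separate tables and were not used here.

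Genes were kept by filterByExpr (minimum count 10), counts scaled by TMM and groups compared with edgeR 4.0.16 (R 4.3.3) by the two-sided quasi-likelihood test, with Benjamini-Hochberg adjustment over all 15417 genes and a threshold of 0.05. The standard error is the absolute log2 fold change divided by the square root of F. CPM use the scaled library sizes. Where ESC (or ESC-OB GFP+) libraries held no count, a fold is a bound against 3 counts over the group; with 1 to 3 counts it is a ratio with an exact 95% interval. Such intervals and floors cover counting error only, and reads are not independent molecules. Exon lengths and mm9 positions came from GENCODE vM1 (89.9% of symbols matched), promoters from RefSeq.

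Named genes were the markers, the largest changes of each list (up to 4, and up to 2 the other way, at 1 CPM or more), the 10 most abundant genes per group, the 10 widest ranges among ESC-OB GFP+ libraries at 10 CPM or more, the 10 smallest changes at 100 CPM or more, and reference and sex-linked genes; not all of them are reported here, and further genes in the text were picked with their values in view. The members and lists were chosen with earlier results of these data known. Alternatives were DESeq2 1.42.0, other scaling factors and filters, a log2 threshold of 1, thinned libraries, a replicate block, no *Rn45s*, leaving out each library and, chosen after seeing the data, ESC replicates 2 and 3 summed. The fit was run on simulated counts in which 200 genes were changed, far fewer than the 11984 called here. That run could therefore not check the scaling under so wide a change. Python 3.11.15 with pandas 2.3.3 (tables) and matplotlib 3.10.9 (plots) did the rest.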

Additional observations from a re-analysis of the deposited data

How the results depend on the processing

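The main counts, 6631 genes higher and 5353 lower, kept within 1.5 times under every alternative run, with 1 exception. Against a log2 change of 1, 4842 genes were higher, which is within 1.5 times, and 3405 lower, which is not. Leaving out 1 library at a time gave 6331 to 6976 higher and 4666 to 5412 lower. The same replicate number did not pair the samples: residuals of same-numbered libraries correlated at -0.0101, 0.00612 and -0.0126, and with the replicate block 6516 genes were higher and 5271 lower. DESeq2 called 6650 and 5453, and without a filter on low counts 7092 and 5540 were called. The number of genes at 2-fold or more between the highest and lowest ESC-OB GFP+ library was 894 at 10 CPM or more and 2375 at 1 CPM or more, over more genes. Among 2751 values of the 173 genes named and tested, under single alternatives, none reversed, 35 (14 genes) lost the call, 12 of these against the log2 threshold of 1, and 14 (*Acan*, *Golga4*, *Spp1*, *Ccnd1* and *Ccnd3*) gained one. The medians of short lists, and of lists with many genes at 0 counts, moved with the filter. ESC replicates 1 and 3 held 5566062 and 4920977 counts, which limits genes at a few counts there.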
